A study of Mus musculus with 48 samples.

Results

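Fast signalling between cortical neurons depends on ion channels built from several subunits, and 33 genes that encode such subunits were followed through postnatal mouse cortex. They comprise 17 genes for ionotropic glutamate receptor subunits, namely 4 AMPA, 5 kainate and 7 NMDA receptor genes and the delta receptor gene Grid1, and 16 genes for GABA-A receptor subunits. Members were found by gene symbol in 3 tables of FPKM, a read abundance corrected for the length of the gene and for the size of the library. All 33 were present among 54100 genes in a table of P1, P7, P14 and P45 cortex and among 55401 genes in a P21 table. A P1 table of libraries labelled CT and VPA held 18 of them among 48785 genes, and the other 15 were not analysed here for that experiment.

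The age table compares Ctrl with mG-cKO cortex, with 3 libraries per group at P1 and P45 and 2 per group at P7 and P14. The P21 table has 5 groups of 3, namely Ctrl, mG-cKD and mG-cKO, and mG-cKD and mG-cKO with RTI, written mG-cKD-RTI and mG-cKO-RTI. The CT and VPA groups of P1 have 3 each. Sample titles use WT for Ctrl, Het for mG-cKD and MT for mG-cKO. Neither the altered gene nor the driver of the deletion is named, and mG, RTI and VPA are not written out, so loss of the target was not checked and what the groups share beyond the label is not known. Strain, sex and age other than the postnatal day are not stated for the groups, nor whether libraries came from separate animals, so the tests measure the spread between these samples, which may be technical.

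AMPA receptors carry most fast excitation, kainate receptors adjust it, and NMDA receptors admit calcium when excitation and depolarisation coincide. GABA-A receptors are chloride channels that inhibit mature neurons, either at synapses or as extrasynaptic receptors that carry a steady current. Rodent cortex is known for exchanging subunits after birth: receptors with Grin2b, Grin2d or Grin3a give way to ones with Grin2a or Grin2c, and GABA-A alpha and delta subunits are exchanged in a similar way.

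Libraries came in 2 kinds. In 21 of the 41 used, the FPKM of low genes corresponded to whole reads for 98.8% to 99.3% of values, at an implied 13.54 to 30.94 M reads. In the other 20, made up of the whole P21 table, the replicate 3 libraries of P1 and P45, and VPA 3, the share was 16.0% to 26.3% and the depth is unknown. Within the age table the first kind summed to 238106 to 258920 FPKM per library and the second to 364520 to 381834. Replicates 1 and 2 of P45 in both genotypes stood apart within the first kind: 19052 to 19137 genes reached 1 FPKM in them, against 14088 to 14501 in every other age library, replicate 3 of P45 included. Every whole-read difference from P1 to P45 rests on these libraries, so what sets them apart and age cannot be told apart there. In whole-read libraries alone 77.7% of all genes passed between P1 and P45. For some members the P45 difference is therefore also given without replicates 1 and 2, an alternative chosen after seeing the data. In bulk cortex, fewer cells of a type and less RNA per cell cannot be told apart. Markers of excitatory neurons summed to 207 to 661 FPKM in the age libraries and those of inhibitory neurons to 204 to 606, while 4 thalamic markers summed to 3.72 to 21.6 FPKM. Choroid plexus markers summed to 244 FPKM in 1 Ctrl library of P7 and 245 in 1 of P14, against 1.002 and 6.37 in their partners.

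The composition of receptor subunit transcripts changed between birth and P45. Relative to P1, Ctrl cortex at P14 had more Grin2c, Gabrd, Gabra4, Grin2a, Gria3 and Gabrb1 and less Grik2, Gria2 and Grik3. In limma with Benjamini-Hochberg adjustment over all genes, 14 of the 26 members tested passed at P14 (11 higher, 3 lower), where 25.4% of all 19733 genes passed, 11.1% higher and 14.3% lower. At P45, 18 of 26 passed (14 higher, 4 lower), against 36.6% of all genes, 17.2% higher and 19.4% lower. Scaling every library to one median turned these splits to 13 higher and 1 lower at P14 and to 9 higher and 6 lower at P45. Scaling them to one sum gave 7 higher and 1 lower at P14 and 9 higher and 3 lower at P45. The shares of all genes given above are those of the unscaled fit and cannot be set beside the scaled splits. The scaled splits therefore describe the settings and are no result about the members. With one sum Gria1, Gabrg3 and Grik3 no longer passed at either age, nor Gria2, Gabrb1 and Gabrb2 at P14 or Gria4, Grid1, Grik2, Grik4 and Gabra2 at P45. The one-sum split at P45 also includes members that did not pass in the unscaled fit. Without replicates 1 and 2 of P45, 13 of 26 members passed at P45 (10 higher, 3 lower), against 31.5% of all genes. Gabra2, Gria1, Gria4, Grin3a, Gabrg3 and Grik4 were then not among them. That setting leaves 1 Ctrl library at P45, replicate 3 without whole read steps, against P1 libraries of both kinds. Age and kind of library cannot be told apart in it, so its counts describe the setting and are no result about the members. For Grin1 the difference was 3.15 in that setting and 1.71 between the replicate 3 libraries alone. The one-median scaling moved the median of all genes at P45 from 0.04 to -0.10. The median log2 difference over the 26 members was 0.44 at P14 and 0.53 at P45, beside -0.09 and 0.04 over all genes. The filter, a mean of 0.5 FPKM over the table, removed Grin3b, Gabra6, Gabre, Gabrp, Gabrr1, Gabrr2 and Gabrr3, so these counts do not describe all 33 members. The P14 and P45 comparisons share the P1 libraries.

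**Figure D1:**
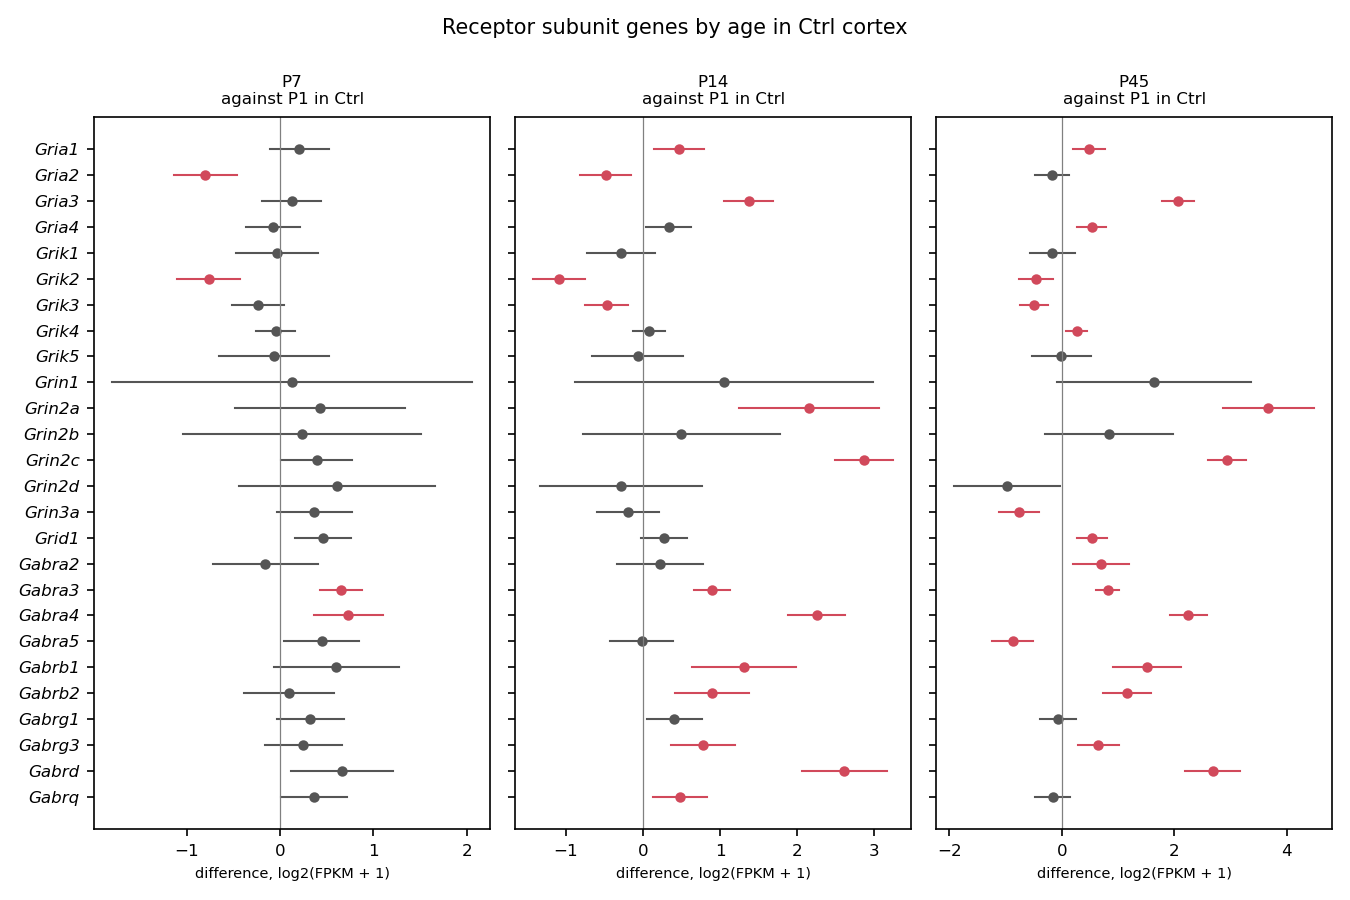
Difference in log2(FPKM + 1) of each tested subunit gene between Ctrl cortex at P7, P14 or P45 and Ctrl cortex at P1, with its 95% interval from limma. Red marks an adjusted p under 0.05. Grin2a, Grin2c, Gabra4 and Gabrd lie farthest to the right at P45, and Grin1 has the widest interval.

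NMDA receptors need Grin1, the obligatory glycine-binding subunit. In Ctrl at P1 it was at 13.2 and 12.9 FPKM in the libraries with whole read steps and at 62.3 in replicate 3. At P7 it was at 24.8 and 24.0, and at P14 at 47.3 and 46.8. At P45 the values were 41.4, 41.5 and, in replicate 3, 206. The 2 kinds of library thus differed more than the ages did, while both showed more Grin1 at P45 than at P1. Over both kinds together the increase from P1 to P45 was 1.63 ± 0.80 and missed the threshold (adjusted p = 0.116). It was 1.59 ± 0.04 in limma on whole-read libraries alone (adjusted p = 4.41e-11), a fit in which 77.7% of all genes passed and whose P45 libraries had more genes at 1 FPKM (19088 and 19137) than its P1 libraries (14435 and 14501), and it was 1.71 in replicate 3. Of its exon bases 13.5% are shared with the antisense gene Grin1os, and since the counting is not stated to use strand, reads there cannot be assigned.

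Grin2a, which gives NMDA receptors their fast mature kinetics, was at 1.04, 1.11 and 1.23 FPKM in Ctrl at P1 and at 2.04 and 1.68 at P7. It reached 8.54 and 8.40 at P14 and 37.1, 35.7 and 13.1 at P45. No pair of ages overlapped, and replicate 3 of P45 was lower than its 2 partners. The difference from P1 was 2.16 ± 0.42 at P14 (adjusted p = 0.00163) and 3.67 ± 0.38 at P45 (adjusted p = 3.34e-06). The P45 difference was 4.17 in whole-read libraries and 2.66 in replicate 3. Between P7 and P14 alone Grin2a rose by 1.73 ± 0.46 (adjusted p = 0.0315), a call that ended without any one of the 4 libraries (adjusted p 0.123 to 0.199).

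Grin2b, the partner subunit of young synapses, showed no common course. It was at 24.3, 27.6 and 19.1 FPKM in Ctrl at P1, at 36.5 and 20.9 at P7, and at 30.1 and 37.2 at P14. At P45 it was at 73.1, 62.4 and 16.8. Replicates 1 and 2 of P45 were the highest of the Ctrl series and replicate 3 was the lowest, so the age difference was 1.35 in the first kind of library and -0.17 in the second. Pooled over both kinds it did not pass (0.84 ± 0.53, adjusted p = 0.219). Replicate 3 of P45 decides that outcome: without it the difference was 1.49 (adjusted p = 0.0149), and with only replicate 3 kept at P45, a choice made after seeing the data, it was -0.46.

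The ratio of these subunits within a library hardly depends on how that library was scaled. On the log2 scale the ratio of Grin2a to Grin2b was between -4.51 and -3.56 in the 5 Ctrl libraries of P1 and P7 and between -2.13 and -0.35 in the 5 of P14 and P45. The means differed by 2.87 (exact permutation test, two-sided, p = 0.00794, adjusted over 6 ratios p = 0.00952), with higher values in all 5 later libraries. A p of 0.00794 is the smallest that 5 libraries against 5 allow. The ratio was below 0 in every one of the 20 age libraries, so Grin2b stayed the more abundant of the pair per length.

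Between P7 and P14 Grin2c came to exceed Grin2d, whose own decrease did not pass in the fit over both kinds of library. Grin2c, best known from cerebellar granule cells and also made by astrocytes, was at 0.5001, 0.599 and 0.555 FPKM in Ctrl at P1 and at 1.18 and 0.897 at P7. It was at 10.1 and 10.4 at P14 and at 11.3, 9.67 and 11.7 at P45. Most of the increase came between P7 and P14, where it was 2.47 ± 0.19 (adjusted p = 2.5e-06), and the levels of P14 and P45 overlapped. From P1 to P45 it amounted to 2.94 ± 0.16 (adjusted p = 5.2e-09), with 2.89 and 3.03 in the 2 kinds of library. The summed level of 5 astrocyte markers moved in the same direction, from 67.0 to 107 FPKM at P1 to 177 to 186 at P14 and 118 to 259 at P45, and its part in the result was not tested.

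Grin2d, which gives slow receptors of embryonic brain and of interneurons, was at 6.76, 7.12 and 15.8 FPKM at P1, at 14.7 and 14.4 at P7, at 7.47 and 7.30 at P14 and at 2.45, 3.44 and 8.23 at P45. The whole-read libraries thus peaked at P7. In those libraries alone Grin2d rose by 0.97 ± 0.10 from P1 to P7 and fell by 0.89 between P7 and P14 (adjusted p = 3.74e-05 and 3.75e-05, limma), fits in which 39.8% and 44.5% of all genes passed. Pooled over both kinds, none of the age differences passed, and the decrease from P1 to P45 was -0.97 ± 0.44 (adjusted p = 0.0894). The log2 ratio of Grin2c to Grin2d was between -4.60 and -3.37 in the earlier Ctrl libraries and between 0.44 and 2.16 in the later ones, a difference of 4.79 (exact permutation test, adjusted p = 0.00952).

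Grin3a, a glycine-binding subunit that keeps juvenile synapses from maturing, had values of 10.7, 11.99 and 15.3 FPKM at P1, of 17.8 and 15.2 at P7, of 10.46 and 11.2 at P14 and of 5.90, 7.48 and 7.67 at P45. All P45 values lay below all earlier ones. The fall from P1 to P45 was -0.76 ± 0.17 (adjusted p = 0.00241). The log2 ratio of Grin1 to Grin3a was 0.10 to 2.02 in the earlier libraries and 2.06 to 4.73 in the later ones, higher by 2.13 (exact permutation test, adjusted p = 0.00952). This ratio also differed between the kinds of library. In Ctrl at P1 it was 2.02 in replicate 3 and 0.31 and 0.10 in its partners. At P45 it was 4.73 in replicate 3 and 2.79 and 2.46 in its partners. Grin3b, a subunit of motor neurons, was at 0.067 to 0.278 FPKM in every age library, below the filter, and 32.1% of its exon bases lie on the opposite strand from exons of Tmem259.

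**Figure D2:**
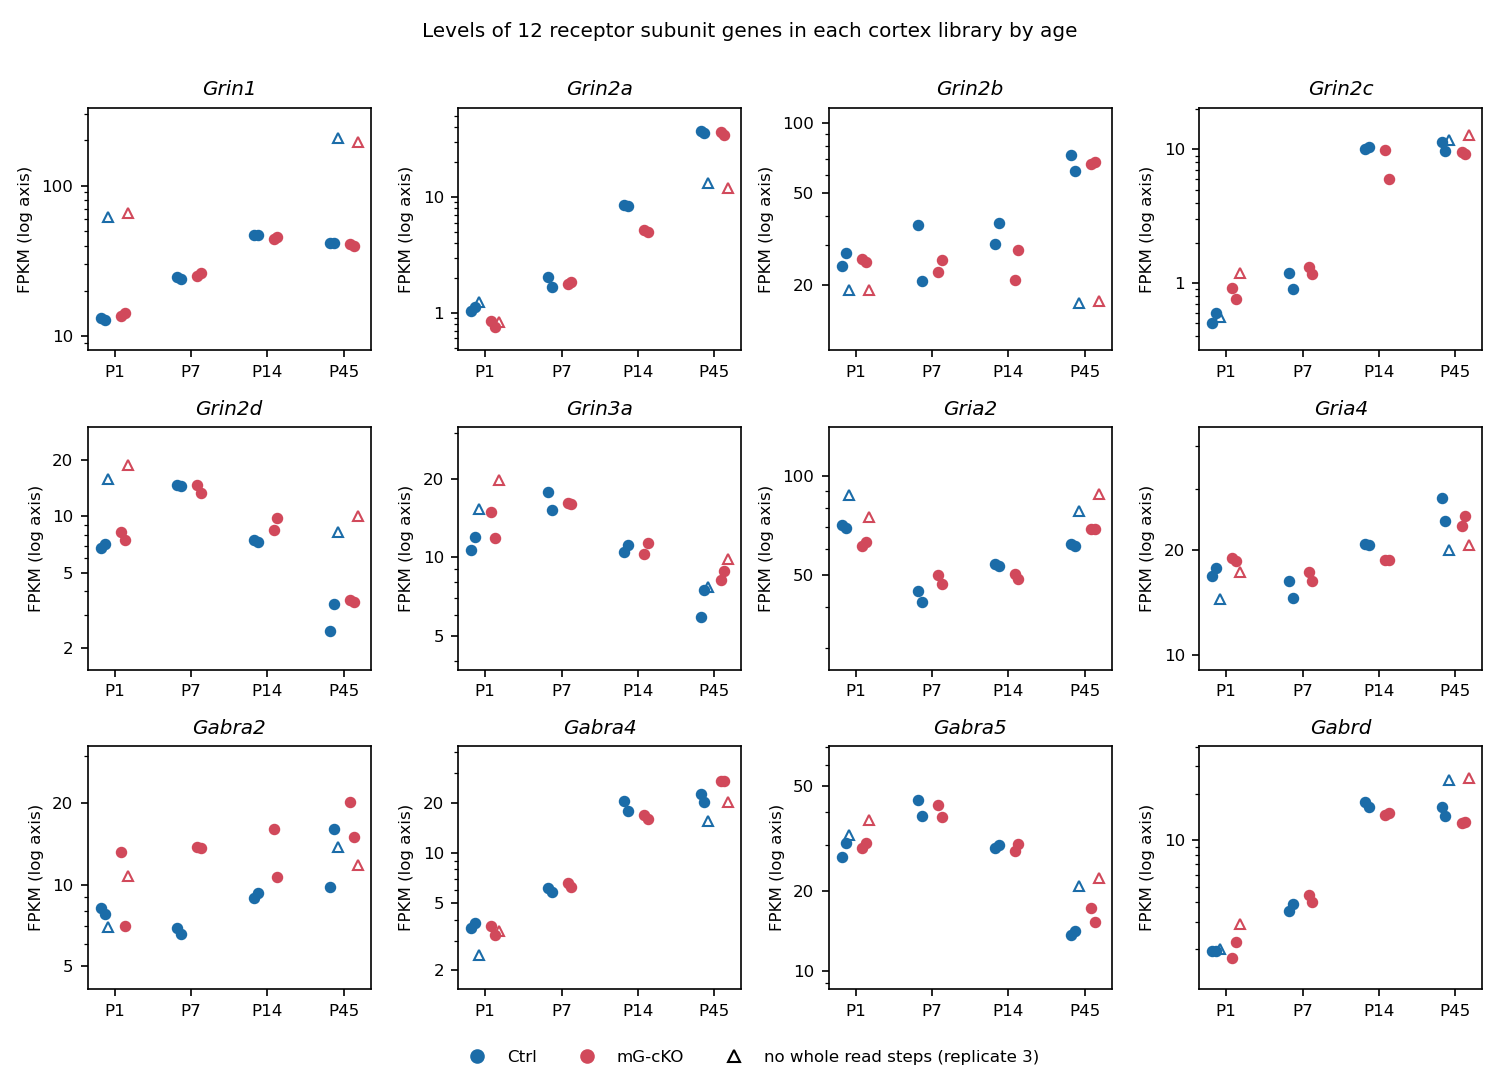
FPKM (log axis, different range in each panel) of 12 subunit genes in each Ctrl (blue) and mG-cKO (red) library at P1, P7, P14 and P45; open triangles are replicate 3 libraries without whole read steps. Grin2a, Grin2c, Gabra4 and Gabrd climb between P7 and P14, Gabra5 peaks at P7, as does Grin2d in the whole-read libraries, and replicate 3 stands apart for Grin1 and, at P45, for Grin2a and Grin2b.

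Of 4 AMPA receptor genes 3 passed at P14, 2 higher and 1 lower, and 3 at P45, all higher. Of all genes 25.4% passed at P14, 11.1% higher and 14.3% lower, and 36.6% at P45, 17.2% higher and 19.4% lower. Gria2, whose product makes the receptor nearly impermeable to calcium, was the most abundant of the 4 at P1, at 71.0, 69.5 and 87.4 FPKM in Ctrl. It was at 44.7 and 41.3 at P7, 54.1 and 53.3 at P14 and 62.1, 61.3 and 78.1 at P45. It therefore dipped at P7, by -0.80 ± 0.16 from P1 (adjusted p = 0.00645), a call that ended without either P7 library (up to 0.0897). At P14 it was still lower by -0.49 ± 0.16 (adjusted p = 0.0327), which ended without Ctrl P1 replicate 3 or either P14 library (up to 0.161), and at P45 the difference from P1 was -0.18 ± 0.14 (adjusted p = 0.326). In the P7 comparison 4 of 26 members passed, 2 in each direction, where 6.24% of all genes passed, 2.86% higher and 3.39% lower. With libraries scaled to one sum the split was 2 higher and 1 lower, and with one median 4 higher and 2 lower. The shares of all genes at P7 are those of the unscaled fit only, so the scaled splits there are no result about the members.

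Gria3, an X-linked AMPA subunit, was the AMPA gene that rose furthest, from 9.23 ± 0.73 FPKM at P1 (SD, n = 3) and 10.1 ± 0.63 at P7 (n = 2) to 25.4 ± 0.12 at P14 (n = 2) and 42.1 ± 8.41 at P45 (n = 3). The differences from P1 were 1.37 ± 0.15 at P14 (adjusted p = 8.84e-06) and 2.06 ± 0.13 at P45 (adjusted p = 2.99e-08). Gria1, a subunit of calcium-permeable and plastic synaptic receptors, rose by 0.47 ± 0.15 at P14 and 0.49 ± 0.13 at P45 (adjusted p = 0.0318 and 0.0102). The call at P14 ended without Ctrl P1 replicate 1 or 3 or without either P14 library (adjusted p up to 0.190), and that at P45 without Ctrl P45 replicate 2 (0.0522).

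Gria4, an AMPA subunit of early circuits and of interneurons, had 16.8, 17.8 and 14.5 FPKM at P1 and 16.3 and 14.6 at P7. At P14 it had 20.9 and 20.7 and at P45 28.4, 24.3 and 20.1, higher than P1 by 0.53 ± 0.12 (adjusted p = 0.00339). The ratio of Gria2 to Gria4 differed by -0.48 between later and earlier libraries (exact permutation test, p = 0.0556, adjusted p = 0.0556), with 1.45 to 2.59 in the earlier and 1.13 to 1.96 in the later libraries. In the whole-read libraries alone the difference was -0.44, with no overlap between the 4 earlier and 4 later libraries (p = 0.0286, the smallest that exact test allows there).

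Of 5 kainate receptor genes, Grik2 and Grik3, which encode channel-forming subunits, were lower at both P14 and P45 than at P1. Grik2 went from 14.7 ± 0.36 FPKM at P1 to 8.26 ± 0.36 at P7, 6.42 ± 0.16 at P14 and 10.6 ± 2.08 at P45. Its difference from P1 was -1.08 ± 0.16 at P14 (adjusted p = 1.35e-04) and -0.45 ± 0.14 at P45 (0.0215). Within the kinds of library the P45 difference of Grik2 was -0.28 in whole-read libraries and -0.81 in replicate 3. The P45 call for Grik2 ended without replicate 3 of either age (adjusted p up to 0.0668). The P7 decrease of Grik2, -0.76 ± 0.16, passed with all libraries (0.00948) and not without either P7 library (up to 0.123). Grik3 fell from 25.4 ± 3.30 to 18.0 ± 0.12 at P14 and 17.7 ± 1.10 at P45 (-0.47 ± 0.13 and -0.50 ± 0.12, adjusted p = 0.0145 and 0.00369); the P14 call ended without Ctrl P1 replicate 2 or either P14 library (up to 0.0944). Grik4, a high-affinity partner subunit, rose at P45 by 0.26 ± 0.09 (adjusted p = 0.0314), but not without Ctrl replicate 1 or 2 of either age (up to 0.139), and Grik1 and Grik5 did not pass at any age. Grik5 was at 52.5 to 91.4 FPKM at P1 and at 54.3 to 82.8 at P45 in Ctrl. Grid1, a delta receptor that binds cerebellins, went from 10.01 ± 0.61 to 15.0 ± 2.46 FPKM at P45 (0.53 ± 0.12, adjusted p = 0.00383), with 0.64 in whole-read libraries and 0.30 in replicate 3.

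Of 10 GABA-A receptor genes tested 7 passed at P14 and 8 at P45, of which Gabra5 alone was lower, where 25.4% and 36.6% of all genes passed. With libraries scaled to one sum Gabrb1, Gabrb2 and Gabrg3 no longer passed at P14, nor Gabrg3 and Gabra2 at P45. The strongest increases were in Gabra4 and Gabrd, whose products pair in extrasynaptic receptors of forebrain. Gabra4 was at 3.56, 3.82 and 2.46 FPKM in Ctrl at P1 and at 6.19 and 5.86 at P7. It was at 20.4 and 17.9 at P14 and at 22.4, 20.1 and 15.5 at P45. Its levels were separated at each step up to P14 and overlapped between P14 and P45. Differences from P1 were 0.73 ± 0.17 at P7 (adjusted p = 0.0203), 2.25 ± 0.17 at P14 (3.84e-07) and 2.25 ± 0.15 at P45 (5.18e-08). The P7 call ended without Ctrl P1 replicate 3 or either P7 library (adjusted p up to 0.194).

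Gabrd was at 1.95, 1.95 and 1.99 FPKM at P1, at 3.52 and 3.89 at P7, at 17.8 and 16.4 at P14 and at 16.4, 14.4 and 24.7 at P45. From P7 to P14 it rose by 1.94 ± 0.28 (adjusted p = 4.49e-04). That step was shared by Grin2c, Gabra4 (1.52 ± 0.19), Gria3 (1.25 ± 0.16) and Grin2a, the 5 of 26 members that passed between P7 and P14, where 8.57% of all genes passed, 4.62% higher and 3.95% lower. No member passed in the lower direction between those ages in the pooled fit. Gabra5, which serves tonic inhibition in young cortex and in hippocampus, ran the other way. It was at 27.0, 30.5 and 32.7 FPKM at P1, 44.1 and 38.4 at P7, 29.2 and 30.0 at P14 and 13.6, 14.1 and 20.9 at P45. All P45 values lay below all earlier ones, and the decrease from P1 was -0.88 ± 0.17 (adjusted p = 9.04e-04). The log2 ratio of Gabrd to Gabra5 was -3.97 to -3.27 in the earlier Ctrl libraries and -0.87 to 0.27 in the later ones (difference 3.49, exact permutation test, adjusted p = 0.00952).

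Gabra2, an alpha subunit of early synapses and of the axon initial segment, did not decline. It was at 8.19, 7.76 and 6.99 FPKM at P1, 6.92 and 6.55 at P7, 8.87 and 9.29 at P14 and 9.79, 16.0 and 13.8 at P45. The P45 difference of 0.69 ± 0.23 passed (adjusted p = 0.0322), and the call ended without any of 5 of the 6 libraries (up to 0.136). The ratio of Gabra4 to Gabra2 changed sign, from -1.47 to -0.16 on the log2 scale in the earlier Ctrl libraries to 0.17 to 1.19 in the later ones (difference 1.56, exact permutation test, adjusted p = 0.00952).

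Gabra3, an X-linked alpha subunit, was at 17.3 ± 1.62 FPKM at P1, 27.8 ± 2.36 at P7, 33.0 ± 0.70 at P14 and 31.2 ± 0.998 at P45. The difference from P1 was 0.65 ± 0.11 at P7 (adjusted p = 0.0023, and 0.0646 without Ctrl P7 replicate 1) and 0.82 ± 0.10 at P45 (1.09e-05). The beta subunits, part of most GABA-A channels, both increased. Gabrb1 reached 16.8 ± 5.14 FPKM at P45 from 5.09 ± 1.02 at P1 (1.52 ± 0.28, adjusted p = 6.7e-04), and Gabrb2 reached 35.5 ± 8.13 from 15.2 ± 1.21 (1.15 ± 0.20, adjusted p = 3.91e-04). At P14 the differences were 1.31 ± 0.31 for Gabrb1, 0.89 ± 0.22 for Gabrb2 and, for the gamma subunit Gabrg3, 0.78 ± 0.19 (adjusted p = 0.00651, 0.00867 and 0.00804). Those of Gabrb2 and Gabrg3 ended without either P14 library (up to 0.0673 and 0.0619) and that of Gabrb1 without Ctrl P14 replicate 2 (0.0517). Gabrg3 rose by 0.65 ± 0.17 at P45 (adjusted p = 0.0087), with 0.83 in whole-read libraries and 0.29 in replicate 3, while Gabrg1 stayed at 2.09 to 4.08 FPKM in all Ctrl libraries and did not pass. Gabrq, the theta subunit, passed at P14 only by a small margin (0.48 ± 0.16, adjusted p = 0.0445), and that call ended without any one of the 5 libraries (up to 0.186).

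**Figure D3:**
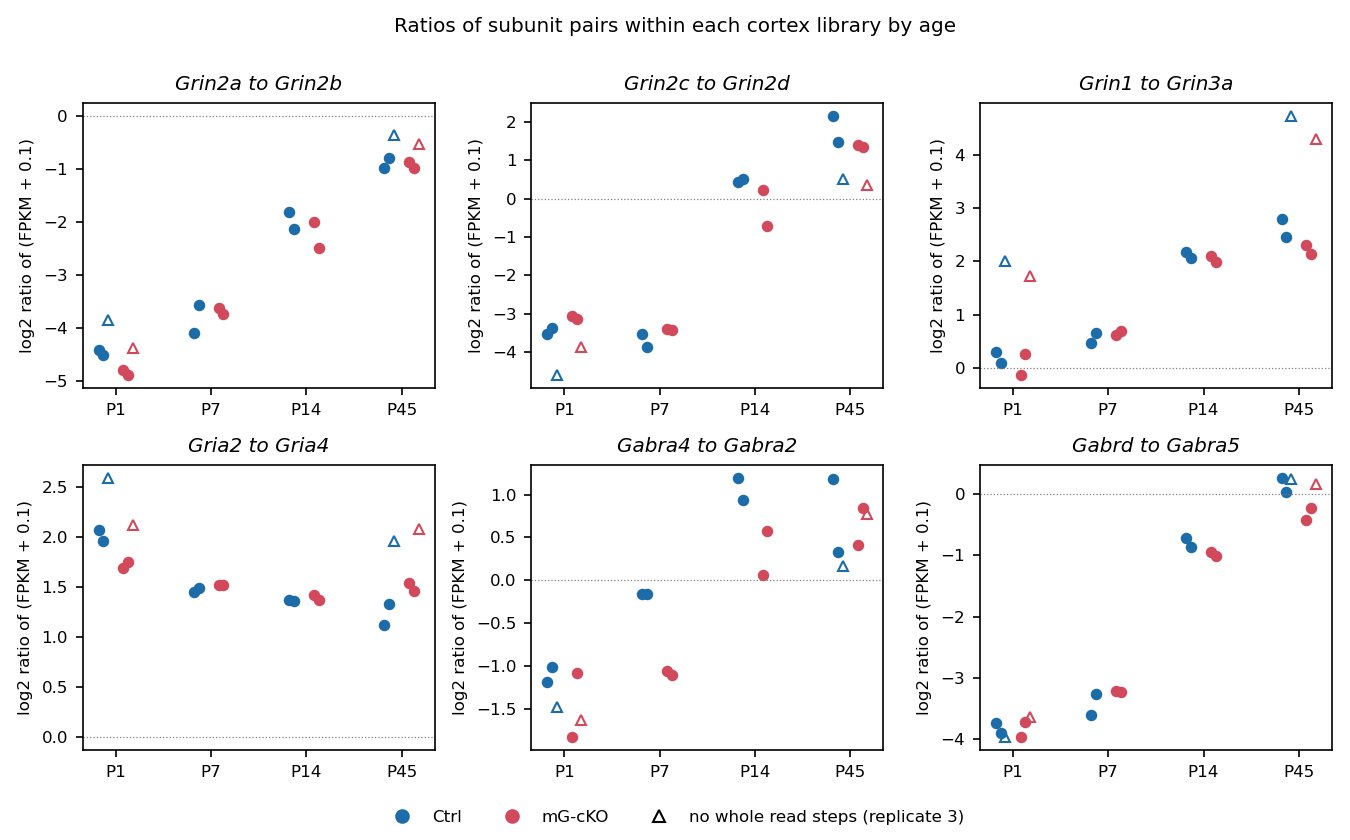
Log2 ratio of FPKM + 0.1 for 6 subunit pairs in each library of the age table; blue is Ctrl, red is mG-cKO, and open triangles are replicate 3 libraries without whole read steps. In 5 of the 6 pairs every P14 and P45 Ctrl library lies above every P1 and P7 Ctrl library, and Gria2 to Gria4 is the exception.

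Some members neighbour each other in the genome. On chromosome 5 (GRCm38), Gabrg1 (70751047 to 70842617), Gabra2 (70957597 to 71095849), Gabra4 (71569749 to 71658308) and Gabrb1 (71658113 to 72149037) lie in a row. Gabra4 and Gabrb1, which are transcribed in opposite directions from overlapping 5′ ends with 46 exon bases in common, both increased from P1 to P14 and to P45, Gabra2 passed at P45 only (0.69 ± 0.23), and Gabrg1 passed at neither age. Whether neighbours move together was not tested. On chromosome 7, Gabrg3 (56716465 to 57387188) and Gabra5 (57407672 to 57510059) lie side by side, and from P1 to P45 the first rose and the second fell. The promoter windows of the head-to-head pair are shown because its 2 genes rose together. They come from RefSeq on GRCm38.p6, are 300 bases long and lie mostly upstream of the start RefSeq annotates. Both are printed 5′ to 3′ on the strand of the gene, with GC box letters (GGGCGG on either strand) in capitals.
Gabra4, minus strand, chr5:71658259-71658558: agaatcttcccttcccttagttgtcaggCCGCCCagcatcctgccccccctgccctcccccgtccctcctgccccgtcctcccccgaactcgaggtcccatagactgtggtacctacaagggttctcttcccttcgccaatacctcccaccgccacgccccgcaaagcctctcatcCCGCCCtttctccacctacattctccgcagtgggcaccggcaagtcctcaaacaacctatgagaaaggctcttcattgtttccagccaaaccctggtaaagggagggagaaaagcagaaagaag
Gabrb1, plus strand, chr5:71657671-71657970: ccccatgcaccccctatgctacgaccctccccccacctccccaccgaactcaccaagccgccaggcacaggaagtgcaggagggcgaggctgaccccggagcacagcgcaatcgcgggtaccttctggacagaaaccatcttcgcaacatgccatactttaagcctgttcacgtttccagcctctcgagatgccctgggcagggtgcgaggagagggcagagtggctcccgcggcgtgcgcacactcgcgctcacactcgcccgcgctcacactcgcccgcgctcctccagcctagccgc

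The Gabra4 window held 2 GC box matches and the Gabrb1 window none, and neither held TATAAA or CAGCTG on either strand. A second RefSeq window of Gabrb1 starts at 71699682 and held none of the 3. Windows were given for 25 of the 33 members, and 12 of these 25 had a window with a GC box. Of all 32851 windows 35.7% held one, 13.6% held TATAAA and 16.3% held CAGCTG. Of the 29 member windows the shares were 41.4%, 13.8% and 3.45%. A match describes letters only.

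Other genes that serve the same synapses are given beside the 25.4% of all genes that passed at P14 and the 36.6% at P45. Of 16 auxiliary subunits of AMPA and kainate receptors, 7 were higher and 3 lower at P14 than at P1, and 5 higher and 4 lower at P45. Cacng3, a transmembrane AMPA receptor regulatory protein of mature cortex, rose by 2.31 ± 0.21 at P14 (adjusted p = 2.25e-06) and its relative Cacng4 fell by 2.68 at P45 (5.6e-08). Among 9 organisers of inhibitory synapses 5 rose at P14, and at P45 4 rose and 2 fell; Insyn1 rose by 1.27 ± 0.13 at P45 (adjusted p = 2.23e-06). Of 4 chloride transporters only Slc12a5, which encodes the exporter KCC2 that makes GABA inhibitory, passed (1.65 ± 0.23 at P14, adjusted p = 9.87e-05). Metabotropic glutamate and GABA-B receptor genes rose in 4 of 9 cases at P14 and 7 of 9 at P45, among them Grm7 (1.56 ± 0.20 at P45). In the list of 13 genes for transmitter synthesis, vesicle loading and uptake 5 rose at P14, and at P45 5 rose and 1 fell. Slc1a2, the main astrocytic glutamate transporter, was up by 4.03 ± 0.32 at P14 (6.01e-07) and Glul, glutamine synthetase, by 1.86 ± 0.15 (8.38e-07).

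None of 26 members passed in limma in mG-cKO against Ctrl at P1, P7, P14 or P45, where 0.142%, 0.162%, 0.345% and 1.16% of all genes passed. At an unadjusted p under 0.05 there were 1, 1, 0 and 1 members, beside 1.74%, 1.63%, 2.8% and 5.84% of all genes. Nor did any member pass in the tests of whether the genotype difference itself changed from P1 to P14 (0.122% of all genes) or from P1 to P45 (0.36%), with 2 and 1 members at an unadjusted p under 0.05, beside 1.88% and 2.92% of all genes. The extreme differences were 0.35 for Gabra2 and -0.23 for Grin2a at P1, and 0.93 for Gabra2 and -0.18 for Grin2b at P7. At P14 they were 0.49 for Gabra2 and -0.64 for Grin2a, and at P45 0.47 for Gabrb1 and -0.14 for Gabrd. The 95% interval reached a median of 0.35 to either side at P1 and P45 and 0.43 at P7 and P14.

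**Figure D4:**
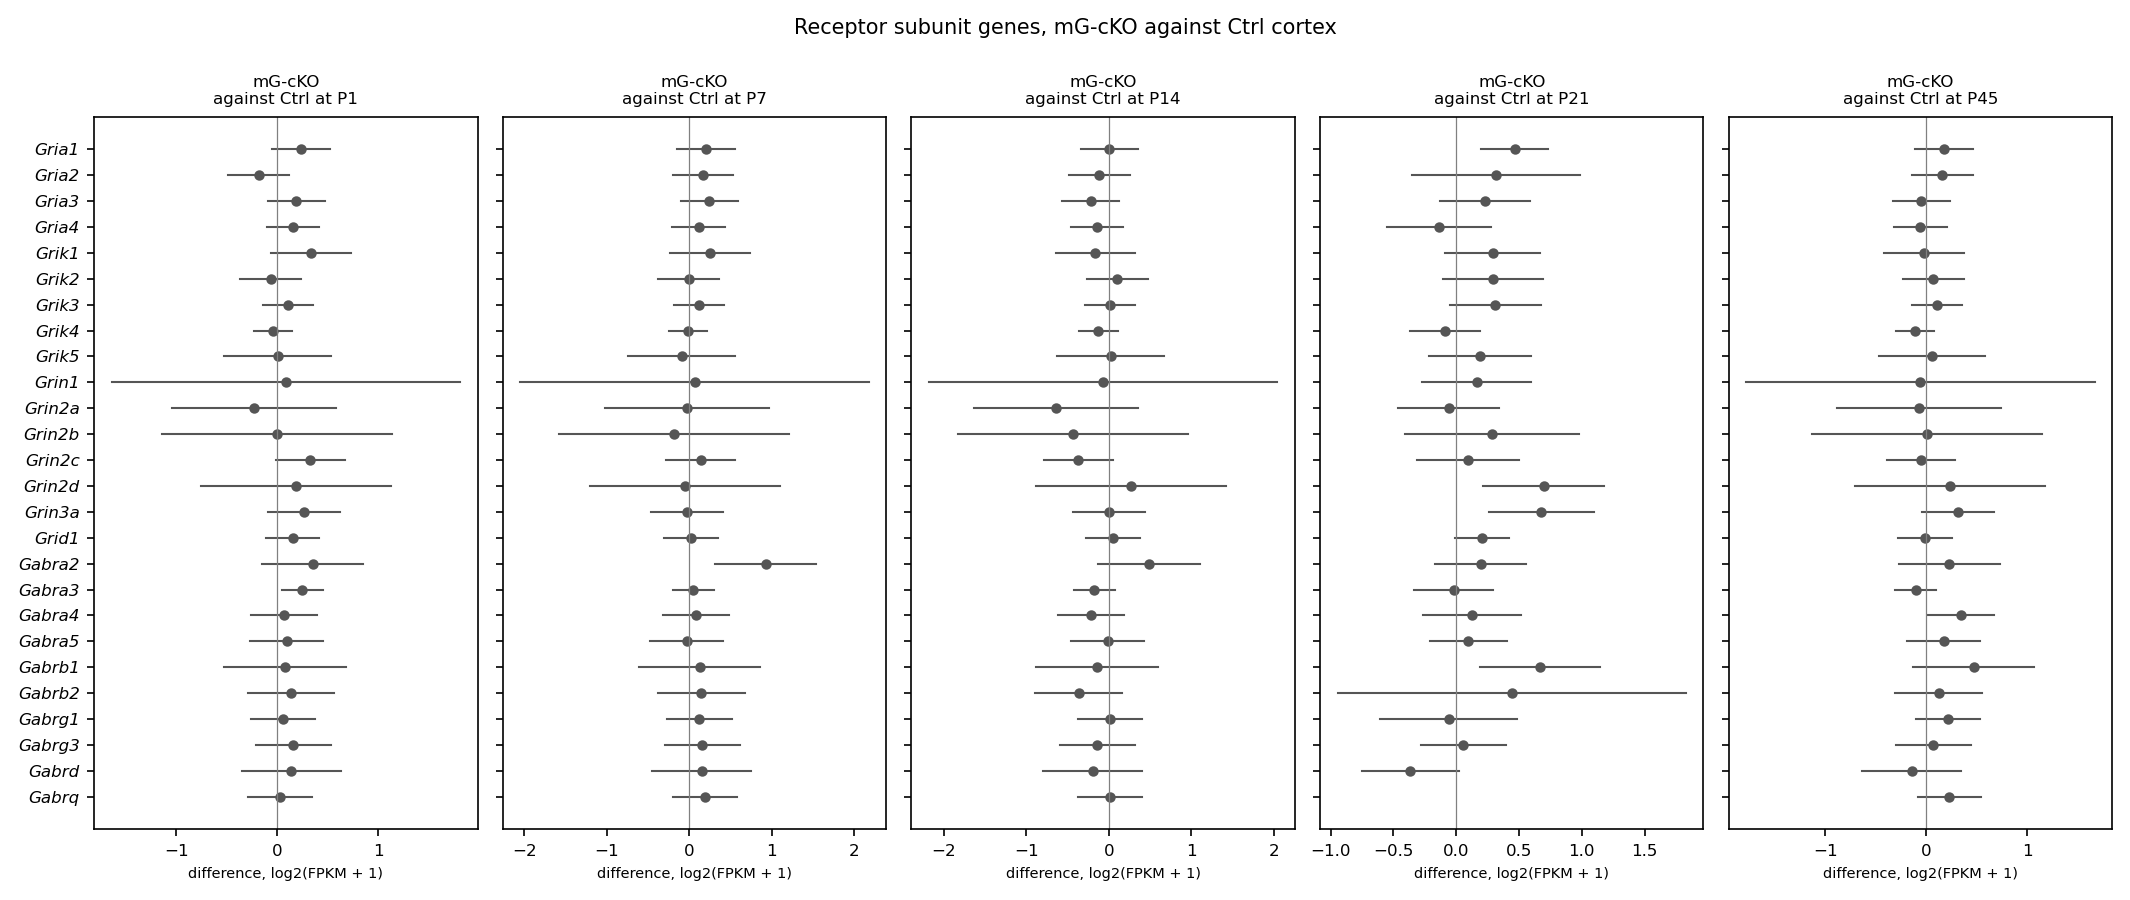
Difference in log2(FPKM + 1) between mG-cKO and Ctrl for each tested subunit gene at P1, P7, P14, P21 and P45, with its 95% interval from limma; axes differ between panels. No point is past the threshold. Gabra3 at P1, Gabra2 at P7, Gabra4 at P45 and Gria1, Grin2d, Grin3a and Gabrb1 at P21 have intervals that do not reach 0.

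Groups that did not overlap were common at P14, with 2 libraries each: 20 of 26 members and 52.2% of all genes. Grin2a at P14 was at 8.54 and 8.40 FPKM in Ctrl and at 5.23 and 4.96 in mG-cKO, and Gabrb2 was at 29.3 and 28.5 against 23.3 and 21.3. Both were lower in mG-cKO with no overlap. In the fit over both kinds of library the differences were -0.64 ± 0.46 and -0.36 ± 0.25 (adjusted p = 1 for both), and with whole-read libraries alone, whose spread is smaller, both passed (adjusted p = 2.87e-04 and 0.0389), the 2 of 26 members that did so where 5.91% of all genes passed. With whole-read libraries alone the change of the genotype difference from P1 to P14 also passed for Grin2a (-0.43 ± 0.09, adjusted p = 0.0457) and for Gabra3 (-0.42 ± 0.09, 0.0499), where 1.64% of all genes passed. At P45 Grin2a was at 36.3, 34.7 and 11.9 FPKM in mG-cKO, close to the 37.1, 35.7 and 13.1 of Ctrl. At P14 oligodendrocyte markers summed to 158 to 180 FPKM in mG-cKO and 647 to 726 in Ctrl, 7 neuron markers to 877 to 916 and 1028 to 1034, and 6 striatal markers to 194 to 296 and 130 to 180. Their part in the result was not tested.

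Gabra2 at P7 was at 6.92 and 6.55 FPKM in Ctrl and at 13.8 and 13.7 in mG-cKO (0.93 ± 0.28, 95% interval 0.32 to 1.54, adjusted p = 0.999). Other ages showed more spread, with 13.2, 6.99 and 10.7 in mG-cKO at P1, 16.1 and 10.7 at P14 and 20.3, 15.0 and 11.8 at P45. Striatal markers, from a region that borders cortex, summed to 59.3 to 105 FPKM in mG-cKO at P7 and 46.0 to 67.4 in Ctrl, and their part was not tested. The ratio of Gabra4 to Gabra2, averaged over ages, differed by -0.46 between mG-cKO and Ctrl (exact permutation test within ages, p = 0.0265, adjusted over 6 ratios p = 0.159). The difference was -0.29, -0.92 and -0.75 at P1, P7 and P14 and 0.12 at P45. With the replicate block the p was 0.0508. The remaining ratios differed by -0.16 to -0.01, with adjusted p of 0.73 to 0.923. At P21 the ratio of Gabra4 to Gabra2 differed by -0.08 between mG-cKO and Ctrl (exact permutation test, p = 0.9).

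At P45 Gabrb1, Gabra4 and Gabrg1 of the chromosome 5 cluster stood above Ctrl within each kind of library, Gabrg1 by 0.19 and 0.28. Gabra2, the other gene of the cluster, differed by 0.45 in whole-read libraries and -0.21 in replicate 3. Members outside the cluster also stood above Ctrl in both, such as Gria1 (0.17 and 0.20) and Grin3a (0.31 and 0.32). Others stood below in both, such as Gabra3 (-0.05 and -0.21). Gabrb1 was at 29.6, 30.9 and 12.96 FPKM in mG-cKO and 18.5, 20.96 and 11.1 in Ctrl, and Gabra4 at 27.0, 27.0 and 20.2 against 22.4, 20.1 and 15.5. Replicate 3 was the lowest of each group for both genes, which is where the groups overlap. Without a block the differences were 0.47 ± 0.28 and 0.34 ± 0.15 (adjusted p = 1 and 0.774). With replicate numbers as a block 5 members passed, all higher: Gabrb1 (0.47 ± 0.08, adjusted p = 0.00546), Gria2 (0.16 ± 0.03, 0.00593), Gabra4 (0.34 ± 0.08, 0.0271), Grin3a (0.32 ± 0.08, 0.035) and Gabrg1 (0.22 ± 0.06, 0.0422). Of all genes 13.9% passed with the block and 1.16% without. In the whole-read libraries alone Gabrb1 (0.60), Gabra4 (0.34) and Gria2 (0.16) passed, 3 of 26 members beside 11.9% of all genes, and within the replicate 3 pair the same genes differed by 0.21, 0.36 and 0.17. Leaving out replicates 1 and 2 of P45 left 1 library per group, so no call is given for that setting. Grin3a was at 8.20, 8.84 and 9.82 FPKM in mG-cKO and at 5.90, 7.48 and 7.67 in Ctrl. Gria2 was at 68.8, 68.9 and 87.9 against 62.1, 61.3 and 78.1. At P1 Gria2 went the other way, with 61.5, 62.9 and 75.3 in mG-cKO against 71.0, 69.5 and 87.4, and passed with the block (-0.19 ± 0.03, adjusted p = 0.0213; 0.917% of all genes), as did the change of its genotype difference from P1 to P45 (0.35 ± 0.04, 0.00192; 5.26% of all genes). At P45 oligodendrocyte markers summed to 110 to 433 FPKM in mG-cKO and 537 to 1957 in Ctrl, and their part was not tested. Cnih3, a cornichon auxiliary subunit of AMPA receptors, was the one gene of the auxiliary, organiser, transporter, metabotropic and synthesis lists that passed at P45 (0.50 ± 0.11, adjusted p = 0.0451).

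Levels moved with age in mG-cKO too. Grin2a went from 0.757 to 0.846 FPKM at P1 to 11.9 to 36.3 at P45, and Gabra4 from 3.25 to 3.65 to 20.2 to 27.0. Grin2c was at 1.31 and 1.17 at P7 and at 9.87 and 6.03 at P14, and Gabrd at 4.48 and 3.99 and then at 14.7 and 14.9. The step between P7 and P14 was thus present in both genotypes. Gabra5 was at 42.4 and 38.3 FPKM at P7 and at 17.2, 15.3 and 22.5 at P45, and Grin2b at 66.7, 68.4 and 17.2 at P45. Grin1 in replicate 3 stood apart in mG-cKO too, at 65.7 at P1 and 194 at P45 beside 13.6 and 14.3 and then 40.7 and 39.4 in its partners.

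At P21, in a table of its own, Gria1 was lowest in Ctrl. It was at 42.4, 45.2 and 40.7 FPKM in Ctrl, 56.4, 51.0 and 52.3 in mG-cKD, and 64.1, 54.5 and 60.2 in mG-cKO. It was at 69.4, 51.6 and 56.1 in mG-cKD-RTI and 71.9, 66.2 and 64.7 in mG-cKO-RTI. All libraries of the 4 other groups lay above all Ctrl libraries, while neighbouring groups other than Ctrl overlapped, except that all mG-cKO-RTI values lay above all mG-cKO and mG-cKD values. Gria1 passed in mG-cKO-RTI against Ctrl (0.65 ± 0.12, adjusted p = 0.0123). It did not pass in mG-cKO against Ctrl (0.47 ± 0.12, 95% interval 0.20 to 0.73, adjusted p = 0.0783) or in mG-cKD against Ctrl (0.31 ± 0.12, 0.04 to 0.58, adjusted p = 1). These comparisons share the Ctrl libraries.

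Grin3a was the other member past the threshold in mG-cKO-RTI against Ctrl, with 7.01, 10.6 and 10.7 FPKM against 4.08, 5.74 and 4.59 (0.84 ± 0.20, adjusted p = 0.0386). In mG-cKO it was at 9.03, 6.74 and 9.04 (0.68 ± 0.20, 95% interval 0.26 to 1.09, adjusted p = 0.116), in mG-cKD at 6.72, 5.24 and 7.53 and in mG-cKD-RTI at 5.08, 6.01 and 7.94. The Ctrl libraries did not overlap those of mG-cKO or mG-cKO-RTI. These 2 were the 2 of 25 members that passed in mG-cKO-RTI against Ctrl, both higher, where 2.3% of all 16420 genes passed, 1.31% higher and 0.987% lower. The call for Gria1 ended without mG-cKO-RTI replicate 2 or Ctrl replicate 1 or 3 (adjusted p up to 0.0582) and that for Grin3a without any of those or mG-cKO-RTI replicate 3 (up to 0.171). With the replicate block or with the 2 groups alone neither passed, and scaling the libraries or testing with no filter left Gria1 only.

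**Figure D5:**
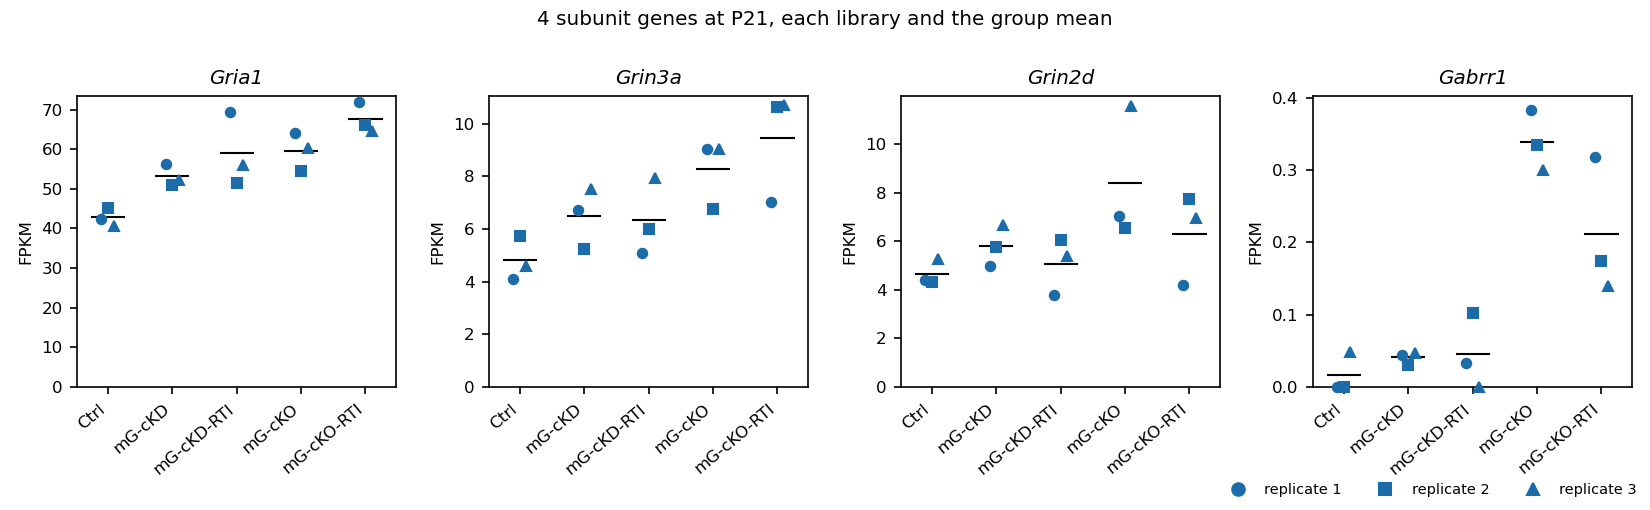
FPKM of Gria1, Grin3a, Grin2d and Gabrr1 in each P21 library (symbols give the replicate number) and group means (lines), axes from 0. Ctrl is lowest for Gria1 and Grin3a, and Gabrr1 is near 0 in Ctrl, mG-cKD and mG-cKD-RTI.

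No member passed at P21 in mG-cKO against Ctrl, where 2.19% of all genes passed, or in mG-cKO against mG-cKD (1.53%), mG-cKD against Ctrl (0%), RTI against none in mG-cKD (0%) or in mG-cKO (0.00609%). At an unadjusted p under 0.05 there were 4, 0, 1, 1 and 0 members, beside 10.4%, 7.39%, 1.41%, 2.15% and 3.95% of all genes. The 4 in mG-cKO against Ctrl were Gria1, Grin3a, Grin2d and Gabrb1, all higher. Their groups did not overlap, as was so for 5 of 25 members and 14.5% of all genes. Grin2d was at 7.05, 6.57 and 11.6 FPKM in mG-cKO and 4.40, 4.31 and 5.29 in Ctrl (0.70 ± 0.23, adjusted p = 0.19). Gabrb1 was at 10.4, 8.42 and 10.9 against 4.73, 8.22 and 5.06 (0.67 ± 0.22, adjusted p = 0.211). The median of the 25 members was 0.20 in that comparison. Oligodendrocyte markers summed to 268 to 446 FPKM in mG-cKO, 377 to 701 in mG-cKO-RTI, 2150 to 2800 in mG-cKD and 2702 to 4194 in Ctrl, and neuron markers to 1516 to 1591 in mG-cKO and 1769 to 1903 in Ctrl. Their part in these differences was not tested. Cacng5, an AMPA receptor regulatory protein, also passed in mG-cKO-RTI against Ctrl (0.82 ± 0.14, adjusted p = 0.00678).

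One Ctrl library of P21 differed from its partners in several members. Ctrl replicate 2 had 38.1 FPKM of Gabrb2 where replicates 1 and 3 had 5.55 and 8.06, 78.3 of Gria2 where they had 35.0 and 40.2, and 22.4 of Grin2b where they had 10.4 and 9.98. It had less Gabrd, 24.4 against 38.4 and 41.4. Over all 15 libraries Gabrb2 ranged from 5.55 to 38.1 FPKM and Gria2 from 35.0 to 89.4. The widest 95% interval of mG-cKO against Ctrl was accordingly that of Gabrb2, from -0.95 to 1.83. Gabrd was at 24.5, 28.2 and 25.7 in mG-cKO and at 27.2, 20.6 and 20.8 in mG-cKO-RTI. The subunit ratios at P21 could not pass, since 3 libraries against 3 give an exact p of at least 0.1. In mG-cKO the log2 ratio of Grin2c to Grin2d was lower than in Ctrl (-0.69) and that of Gria2 to Gria4 higher (0.46), both at p = 0.1 (exact permutation test). Grin2a to Grin2b was between -0.64 and 0.00 in the Ctrl libraries and between -0.73 and -0.56 in mG-cKO.

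RTI moved no member past the threshold within a genotype. The largest differences were -0.48 ± 0.17 for Gabra2 in mG-cKD, with 9.002, 6.26 and 8.09 FPKM after RTI and 13.6, 8.29 and 12.3 without, and 0.51 for Gabrg1 in mG-cKO, with 2.54, 3.39 and 3.75 against 2.79, 1.603 and 1.59. Both pairs of groups overlapped. The 95% interval over the P21 members reached a median of 0.40 to either side.

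Subunits at the bottom of the range were accounted for as well. Gabrp, a subunit found mainly outside the brain, was listed at 0 in 18 of 20 age libraries and in all 15 P21 libraries. Gabra6, the alpha subunit of cerebellar granule cells, was listed at 0 in 10 and in 13 of them and never exceeded 0.101 FPKM. Gabre was at most 0.413 FPKM, and the rho subunits Gabrr2 and Gabrr3, known from retina, were at most 1.01 and 0.0706. Gabrq was below the filter at P21, with 0.152 to 1.07 FPKM.

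Gabrr1, the other rho subunit, was below the filter in every table but differed by genotype at P14 and P21 in fits with no filter. In Ctrl it was at 0.204, 0.118 and 0.107 FPKM at P1, 0.153 and 0.129 at P7, 0.021 and 0.0848 at P14 and 0.0992, 0.0751 and 0 at P45. In mG-cKO it was at 0.115, 0.0467 and 0.182, then 0.417 and 0.393, then 0.416 and 0.472, and at P45 0.185, 0.330 and 0.181. The groups overlapped at P1 and at no later age. Of genes above the filter, 52.2% did not overlap at P14, 14.5% at P21 and 7.32% at P45. No share was counted for P7 or for genes below the filter such as Gabrr1. At P21 Gabrr1 was at 0, 0 and 0.0475 in Ctrl, 0.0444, 0.0300 and 0.0473 in mG-cKD, 0.0333, 0.102 and 0 in mG-cKD-RTI, 0.384, 0.336 and 0.300 in mG-cKO and 0.319, 0.174 and 0.140 in mG-cKO-RTI. With no filter it passed at P14 (0.46 ± 0.09, adjusted p = 0.0418) and at P21 against Ctrl (0.40 ± 0.06, 0.00567) and against mG-cKD (0.36 ± 0.06, 0.0125), where 0.328%, 1.05% and 0.768% of all genes passed. Without a filter it did not pass at P7 (0.30 ± 0.09, 0.727), P45 (0.22 ± 0.07, 0.287) or in mG-cKO-RTI against Ctrl (0.25 ± 0.06, 0.101). These are levels of under 0.5 FPKM, and Gabrr1 was named after its values were seen.

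In the P1 experiment with CT and VPA libraries 10 of 18 members passed the filter and none passed the test in limma, nor did any gene (0% of 11264). At an unadjusted p under 0.05 there were 2 of 10 members and 23.5% of all genes. Grik1 was at 4.52, 3.70 and 3.75 FPKM in CT and 5.47, 6.08 and 7.60 in VPA (0.56 ± 0.18, 95% interval 0.124 to 0.996, adjusted p = 0.156). Gabra2 was at 3.42, 4.34 and 5.01 against 6.75, 6.31 and 13.7 (0.85 ± 0.31, adjusted p = 0.182). In both genes VPA 3, the library without whole read steps, was highest. Without VPA 3 the differences were 0.44 and 0.53. Grin2a was at 0.504, 0.469 and 0.544 FPKM in VPA against 0.857, 0.737 and 0.895 in CT (-0.28). The other tested members were Grik4, Grin2c, Gabra4, Gabrb1, Gabrg1, Gabrg3 and Gabrd, at 0.961 to 4.70 FPKM in single libraries. The median difference of the 10 members was 0.27 and that of all genes 0.12. None of the excitatory, inhibitory or general neuron markers was analysed here in that table, and striatal markers summed to 50.4 to 56.1 FPKM in VPA and 25.3 to 34.8 in CT, a part in these values that was not tested.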

How the data were processed

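Poly-A status and strandedness are not given in the sources used here; per the labels' protocols TRIzol was used for extraction and a NEB Next Ultra RNA kit for the libraries. The submitters' processing notes name featureCounts 2.0.4, STAR 2.5.3a, Trim Galore 0.6.5 and the mm10 build. The authors deposited FPKM per gene, separately for 3 tables, so tests stayed within a table. Of 48 labelled samples 41 were used; 4, the third replicates of P7 and P14, are not analysed here, and 3 NPC libraries were not used.

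From the deposited FPKM, log2(FPKM + 1) was tested with limma 3.58.1 (trend, robust; R 4.3.3) over all genes whose mean in a table reached 0.5 FPKM, in 17 comparisons, with Benjamini-Hochberg adjustment over all genes of the table and a threshold of 0.05. Differences are on that scale, ± SE, and understate the change of low genes. All groups of a table shared one spread. Whole read steps were judged to within 0.05 reads. The 6 subunit ratios, log2 of (FPKM + 0.1), were compared by two-sided exact permutation tests: P14 and P45 against P1 and P7 in Ctrl, and mG-cKO against Ctrl by 14400 relabellings within ages. The tests were tested on simulated data.

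The main limma fits used no pairing, and the replicate block was an alternative. Same-numbered libraries are called paired here where every correlation of their deviations exceeded 0.1. The comparisons meeting this were mG-cKO against Ctrl at P1 (0.71 to 0.94), P45 (0.87 to 0.97) and P21 (0.13 to 0.70), mG-cKO against mG-cKD at P21 (0.33 to 0.69) and P45 against P1 in Ctrl (0.56 to 0.66); the labels state no pairing, and at P1 and P45 replicate 3 is also the library without whole read steps. For mG-cKO against Ctrl, a library of another number correlated more strongly for replicate 2 at P1, replicate 1 at P45 and replicates 1 and 2 at P21. The same held for replicate 2 of P45 against P1 in Ctrl, so the rule does not establish pairs. Alternatives were another pseudocount, no filter, 2 scalings, fits on the compared groups only, the replicate block, whole-read libraries only and leaving out each library. The members and lists were chosen with earlier results of these data known. Named genes are members past the threshold, the 12 genes of the ratios, and at most 2 genes per list and comparison with the smallest adjusted p; the other members are given as ranges and counts. Promoter sequences are RefSeq's on GRCm38.p6 and gene positions GENCODE M21's on GRCm38.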

Additional observations from a re-analysis of the deposited data

Results flagged for a closer look

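In 7 members every mG-cKO library lay on one side of every Ctrl library at P7 and on the other side at P14, so that the genotype difference changed sign between these ages, with 2 libraries per group. That holds for 7 of 26 members tested and for 7.67% of all genes, and the median difference of the members was 0.12 at P7 and -0.12 at P14. The log2 differences at P7 and then P14 were 0.24 and -0.22 for Gria3, 0.25 and -0.16 for Grik1, 0.06 and -0.07 for Grin1, 0.15 and -0.19 for Gabrd, 0.09 and -0.21 for Gabra4, 0.17 and -0.11 for Gria2, and 0.16 and -0.14 for Gabrg3.

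A test of the change itself, P14 minus P7, was added after seeing the data. In limma over all libraries none of the 7 passed (adjusted p = 1 for each), and 0.0101% of all genes did. With whole-read libraries alone the adjusted p ran from 0.0812 for Gria2 (-0.28 ± 0.06) to 0.356 for Grin1 (-0.13 ± 0.05), and 0.385% of all genes passed. No group had the 4 libraries that a check for single outlying libraries needs.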

How the results depend on the processing

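Of 219 alternatives for the 17 counts of called members, 185 stayed within 1.5 times the reported count. For mG-cKO against Ctrl, the replicate block called 1 member at P1, 2 at P14 and 5 at P45, whole-read libraries alone called 2 at P14 and 3 at P45, and at P14 no filter and the compared groups alone each called 1. For the change of the genotype difference, the block and the whole-read libraries each called 2 members from P1 to P14 and 2 from P1 to P45. For P7 against P1 in Ctrl the compared groups alone and the block called 0 and whole-read libraries 16, the last where 39.8% of all genes passed. For P14 against P7 these settings called 17, 10 and 20, the last where 44.5% of all genes passed. Where no share of all genes stands beside a count in this section, the count describes the setting and is no result about the members. For P14 against P1 one sum of FPKM called 8, and for P45 against P1 the compared groups alone called 10. At P21 no filter called 1 member for mG-cKO against Ctrl, 1 against mG-cKD and 1 for mG-cKO-RTI against Ctrl, where either scaling called 1 and the compared groups alone or the block 0. The replicate block changed no other count by that much; at P7, P14 and in the comparisons not named as paired, libraries share only a number, with correlations of 0.01 at P7 and 0.07 at P14 between genotypes.

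Leaving out single libraries gave 0 to 4 calls for P7 against P1, 7 to 12 for P14 against P1 and 0 to 3 for mG-cKO-RTI against Ctrl. The age difference of the Gria2 to Gria4 ratio was -0.61 to -0.31 without single libraries, passing (exact p = 0.0476) without Ctrl P7 replicate 1, Ctrl P7 replicate 2 or Ctrl P45 replicate 3, and -0.44 (exact p = 0.0286) in whole-read libraries, where its genotype difference was 0.0164 in place of -0.01. Without single libraries the genotype difference ran from -0.0592 to 0.0498 for that ratio, from -0.317 to 0.0308 for Grin1 to Grin3a and from -0.185 to 0.0464 for Grin2c to Grin2d. Of 836 alternatives for single members, 682 kept the call and direction, 121 lost and 32 gained it, and 1 reversed: Grin2b at P45 against P1, -0.46 with P45 replicates 1 and 2 left out, a setting chosen after seeing the data. The cause was not tested. Depth is unknown for 20 libraries and limits most the members below 0.5 FPKM.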
